A study of Mus musculus with 6 samples.

Results

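The clustered protocadherin locus of the mouse lies on chromosome 18 and holds the Pcdha, Pcdhb and Pcdhg sub-clusters in this order. Its contacts were measured by Hi-C, a method that joins neighbouring DNA ends in crosslinked nuclei and counts the joined fragments by sequencing. The members are all pairs of 5 kb bins on chromosome 18 with the midpoint of at least 1 bin from 36950000 to 38050000 of the mm9 build. The rule that picks them uses position alone and no count, though earlier results of these data were known when it was set. There were 1856 member pairs among 129265 pairs on the chromosome and 3654014 pairs in the whole list.

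The cells were P19, a mouse embryonal carcinoma line grown as a monolayer on gelatine-coated plates, which can be driven towards neurons by all-trans retinoic acid (ATRA). The 3 groups of 2 libraries were untreated cells (T0) and cells kept in 1e-06 M ATRA for 6 h (T6) or 48 h (T48). No untreated cells at 6 h or 48 h were analysed here, so an effect of ATRA and an effect of culture time cannot be told apart. The labels' growth text covers F9 cells as well, and it does not say whether replicates were separate cultures. The p-values therefore measure only the spread between these libraries, which may be technical.

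Clustered protocadherins are cell-surface adhesion proteins by which neurons tell their own branches from those of other neurons. Each neuron uses a small, largely random set of the many promoters of the locus. Every variable exon of Pcdha and Pcdhg has a promoter of its own and is spliced to constant exons at the end of its sub-cluster, whereas Pcdhb genes have a single coding exon and share no constant exons. Promoter use is known to involve looping, through CTCF and cohesin, to enhancers at the downstream end of Pcdha and, for Pcdhb, to enhancers beyond Pcdhg. These enhancers were not placed on the bins here.

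No mm9 annotation was used, so the sub-cluster limits are approximate and were set on a 10 kb grid from general knowledge of the build. Earlier results of these data were known when they were set. Pcdha was taken as chr18:37090001-37350000, Pcdhb as chr18:37420001-37690000 and Pcdhg as chr18:37820001-38010000. Between them lie the Pcdha-Pcdhb gap, chr18:37350001-37420000, and the Pcdhb-Pcdhg gap, chr18:37690001-37820000. The upstream flank runs from chr18:36950001 to 37090000, and the downstream flank from chr18:38010001 to 38050000. The RefSeq gene table, made for another build (GRCm38) and used for names and order only, holds 14 Pcdha, 22 Pcdhb and 22 Pcdhg genes, with Slc25a2 and Taf7 between Pcdhb and Pcdhg. The genes of a family are tandem copies with similar sequence, and how reads were shared between copies is not given in the sources used here. Of the 220 bins of the locus, 165 had at least 1 listed pair (75%, against 77.0% of bins on chromosome 18 and 73.1% in the genome), and nothing can be said of the other 55.

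The list gives the pairs that the submitters call significant in the replicates of a time point alike, with the unnormalised number of read pairs in each library (the count). A pair either has a count in both libraries of a time point or 0 in both, so a 0 means not listed and is no measured absence of contact. For the same reason the number of listed pairs has no replicate error. Counts of member pairs summed to 25510 (replicate 1) and 14658 (replicate 2) in the T0 libraries, to 20254 and 11148 in those of T6, and to 20634 and 13823 in those of T48. The median count of a listed member pair was 15 and 9 for T0, 14 and 8 for T6, and 12.5 and 9 for T48. The lowest count listed at a distance of 200 kb was 6 in replicate 1 and 4 in replicate 2 at each time point, so single distant contacts rest on few reads.

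Of the member pairs, 1039 were in the T0 list, 874 in the T6 list and 922 in the T48 list, and 284 were listed at all 3 time points. Both bins lay inside the locus for 991, 841 and 869 of them. Those numbers were 1.45, 1.45 and 1.37 times the number expected from distance, which is the share of all bin pairs at each distance that is listed, summed over the possible pairs of bins that have any listed pair. The same 1100 kb layout, laid over 2281 windows of the genome, gave medians of 0.927, 0.925 and 0.949 and 95th percentiles of 1.79, 1.78 and 1.69. The locus thus held more listed pairs than the middle window and fewer than the top windows. The number at T6 was 0.849 times that at T0, against a window median of 0.850 and a 5th to 95th percentile range of 0.772 to 0.954. The number at T48 was 0.877 times that at T0, against a window median of 0.935 and a 5th to 95th percentile range of 0.772 to 1.13. Neither ratio stood outside its range.

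**Figure D1:**
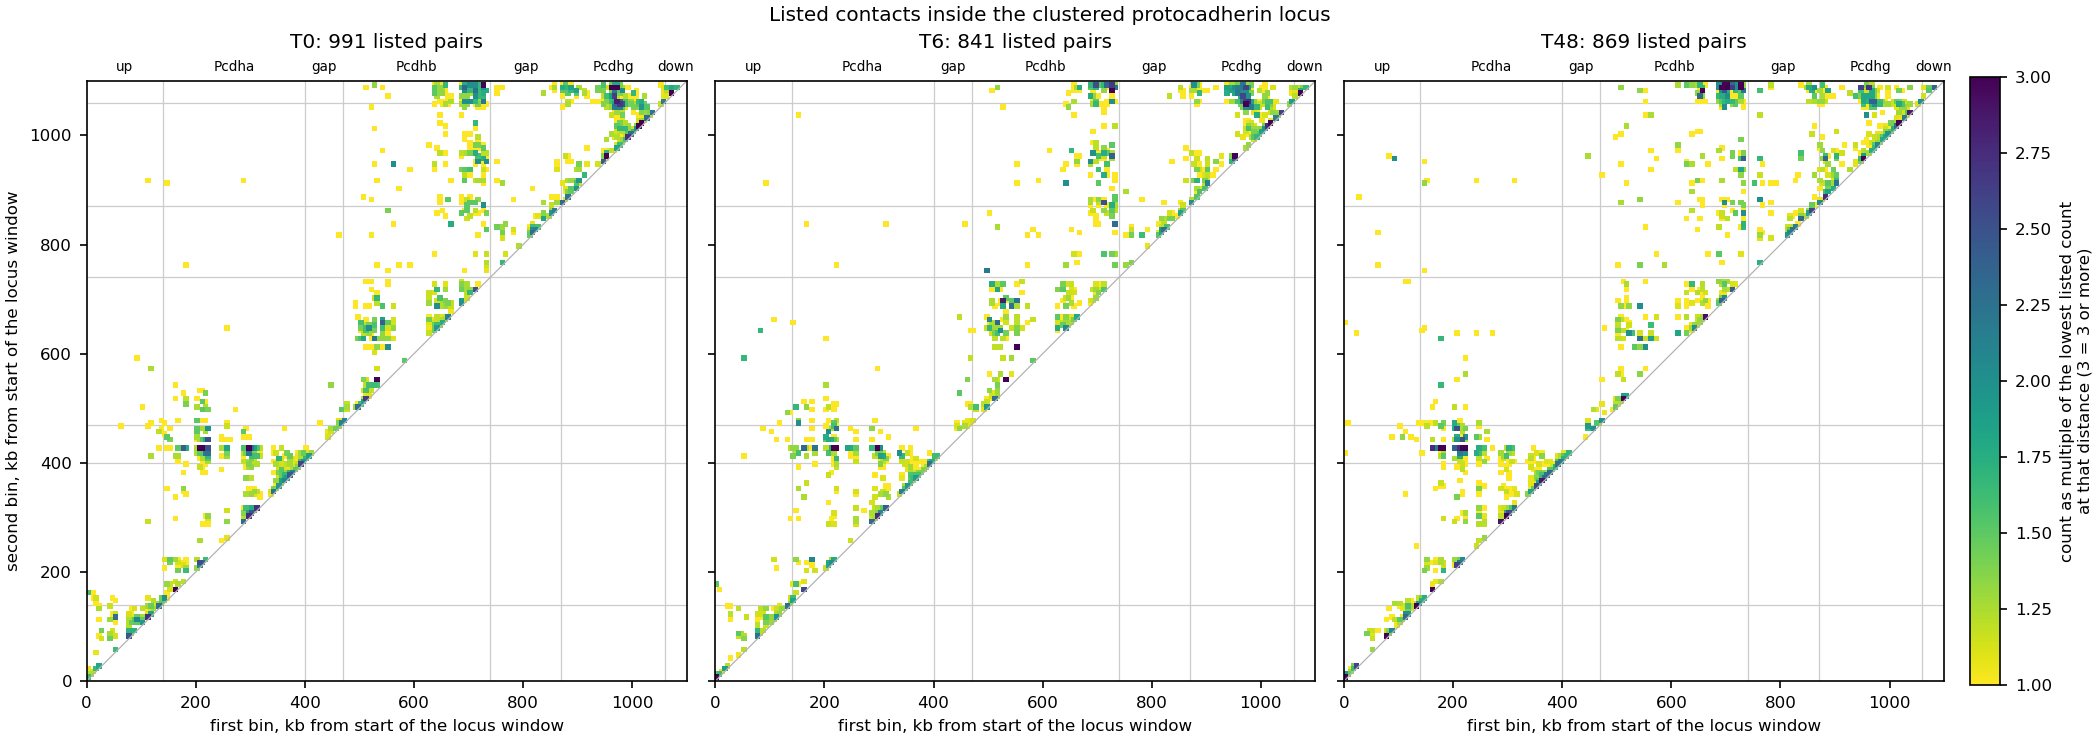
Each square is a listed pair inside the locus, with its first and second bin in kb from the start of the locus window, at T0, T6 and T48; colour gives the count divided by the smallest count listed at that distance (the lower of the 2 replicates), and grey lines are the sub-cluster limits. Pairs gather within each sub-cluster, between Pcdha and the gap after it, and between Pcdhb, Pcdhg and the downstream flank, while the square between Pcdha and Pcdhg is nearly empty.

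Each sub-cluster had more listed contacts within itself than expected from distance at every time point. Within Pcdha 141 pairs were listed for T0, 111 for T6 and 139 for T48, or 1.39, 1.30 and 1.499 times the number expected. Within Pcdhb the numbers were 150, 141 and 120, or 1.44, 1.60 and 1.26 times the number expected. Within Pcdhg they were 135, 120 and 134, or 1.51, 1.58 and 1.63 times the number expected. All these ratios lay above the window medians, which ran from 0.845 to 0.903, and below the window 95th percentiles.

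Within each sub-cluster, the pair that stood highest above the lowest listed count throughout joined neighbouring bins. In Pcdha the pair of chr18:37247500 and 37252500 (bin midpoints) had counts of 98 and 69 in T0, 104 and 66 in T6, and 113 and 82 in T48. In Pcdhg the pair of 37967500 and 37972500 had 148 and 81, 118 and 74, and 122 and 100. In Pcdhb the pair of 37462500 and 37467500 had 141 and 66, 113 and 54, and 121 and 86. These counts were 2.25 to 4 times the lowest listed at 5 kb in the less favourable replicate. A Pcdhb pair 60 kb apart, 37502500 and 37562500, reached 20 and 14, 34 and 24, and 20 and 54. Its T48 replicates differ more from each other than the time points do.

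Few contacts across the middle of a sub-cluster, which are longer, were listed at all 3 time points. Across the Pcdhb midpoint, between bins 135 kb apart at the median, 61 pairs were listed for T0, 62 for T6 and 42 for T48, and 3 of 116 were listed at all 3. With both bins downstream of the Pcdhb midpoint the numbers were 61, 52 and 57, with 22 of 97 at all 3. Across the Pcdha midpoint 22, 26 and 35 pairs were listed, and 3 of 68 at all 3. Across the Pcdhg midpoint there were 15, 7 and 27, and none of 41 at all 3. The median distance across the Pcdha and Pcdhg midpoints was 130 and 75 kb. For comparison, from 100 kb to 250 kb, 55610 of 364544 T0 pairs of the genome were listed at all 3, and 54 of 274 inside the locus. From 20 kb to 100 kb these were 114134 of 545429 and 63 of 325. The difference was not tested. The longest pair listed at all 3 times was 215 kb within Pcdha, 145 kb within Pcdhb and 90 kb within Pcdhg.

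Between sub-clusters, the neighbours Pcdhb and Pcdhg shared most of the listed contacts, and Pcdha shared few with either. Pcdhb to Pcdhg had 96 listed pairs at T0, 72 at T6 and 62 at T48, or 3.52, 3.03 and 2.38 times the number expected. The same layout gave more in 102, 148 and 243 of 2271 windows. Pcdha to Pcdhb had 23 at each time point, or 0.603, 0.688 and 0.645 times the number expected, close to the window medians of 0.719, 0.720 and 0.684. Pcdha to Pcdhg had 2, 1 and 5, with counts of 3 to 5 per library, and 0.224, 0.138 and 0.475 times the number expected (window medians 0.400, 0.413 and 0.415).

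The pairs listed between sub-clusters were mostly different ones at each time. Over all 3 combinations 121 pairs were listed for T0, 96 for T6 and 90 for T48, and 8 at all 3, each of them between Pcdhb and Pcdhg. Of the 96 Pcdhb to Pcdhg pairs at T0, 16.7% were listed at T6 and 16.7% at T48 (95% Wilson interval of 10.5% to 25.4% for each, counting error only). Their median distance was 270 kb, and each interval holds the share of all nuclear pairs from 250 kb to 500 kb, given below. Of the 23 Pcdha to Pcdhb pairs at T0, 1 was listed at T6 and 2 at T48 (95% Wilson upper limits 21.0% and 26.8%). The same number at every time point thus came from mostly different listed pairs. At the median their counts were 1 times the lowest listed at their distance, in the less favourable replicate. Inside the locus as a whole 45.1% of T0 pairs were listed at T6 and 43.5% at T48. The share differed by distance, so it is set beside that of all nuclear pairs by distance class. Under 20 kb it was 69.8% and 79.7% in the locus, against 75.4% and 81.7%. From 20 kb to 100 kb it was 43.4% and 34.5%, against 38.5% and 35.5%. From 100 kb to 250 kb it was 42.0% and 32.5%, against 28.4% and 27.4%. From 250 kb to 500 kb it was 22.5% and 32.5%, against 20.7% and 20.5%. From 500 kb to 1100 kb it was 0% and 10% of 10 T0 pairs, against 11.3% and 13.1%.

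The Pcdhb to Pcdhg contacts came mainly from the downstream side of Pcdhb, past its midpoint at 37555000, with 86 of 96 pairs at T0, 68 of 72 at T6 and 49 of 62 at T48. A pair listed at all 3 times joined 37662500 in Pcdhb to 37827500 at the start of Pcdhg, 165 kb away. Its counts were 12 and 6 in T0, 17 and 10 in T6, and 9 and 7 in T48. The T6 libraries were higher than those of the same replicate number at the other times. Counts of unlike replicate number overlap between the groups. Replicate 2 libraries have lower totals, however, so such counts cannot be compared directly. Among the pairs highest above the lowest listed count at each time, some listed at a single time had counts of a like size. They were 12 and 8 at T0 for 37667500 to 37902500 and 12 and 12 at T6 for 37677500 to 37912500. At T48 they were 12 and 11 for 37682500 to 37907500. These 3 join the end of Pcdhb to the middle of Pcdhg. Another such pair, 37512500 to 37897500, with 9 and 6 at T0 alone, starts upstream of the Pcdhb midpoint. The median counts of all listed Pcdhb to Pcdhg pairs were lower, at 6 and 4 in T0, 8 and 5 in T6, and 6 and 5 in T48.

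The gap that follows Pcdha was listed far more often with Pcdha than with Pcdhb. Between Pcdha and the Pcdha-Pcdhb gap 112 pairs were listed for T0, 86 for T6 and 88 for T48, or 4.19, 3.82 and 3.79 times the number expected. The window 95th percentiles were 3.07, 3.08 and 3.16, and 41, 55 and 65 of 2272 windows were higher. Between the same gap and Pcdhb, its other neighbour, 6, 12 and 5 pairs were listed, or 0.244, 0.578 and 0.232 times the number expected. The known Pcdha enhancers lie at that end of the sub-cluster, though their bins were not identified here.

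Of the gap bins, chr18:37375001-37380000 was listed with most Pcdha bins at each time point, with 21 at T0, 19 at T6 and 16 at T48, of 26 at any time, and 11 of these were listed throughout. The gap bin at 37367500 followed with 19, 15 and 14, of 30 at any time and 5 throughout. The bin at 37362500 had 17, 9 and 12, of 24 at any time and 0 throughout. The bin at 37352500 had 15, 12 and 10, of 22 at any time and 4 throughout. The summed count of those 11 pairs was 218 and 111 in T0, 162 and 98 in T6, and 189 and 115 in T48. The highest replicate 1 count of the bin at 37377500 was with 37172500, 205 kb upstream, at 34 and 10 in T0, 30 and 12 in T6, and 25 and 16 in T48, or 2.5, 3 and 4 times the lowest listed at that distance. The next bin upstream, 37167500, gave 29 and 10, 19 and 13, and 24 and 12. The groups overlap for both pairs. Bins 37162500, 37132500 and 37127500 of Pcdha also met it at all 3 time points.

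The Pcdha partners shifted in number between the sides of the sub-cluster. Upstream of the Pcdha midpoint at 37220000, 54 pairs with the gap were listed for T0, 48 for T6 and 57 for T48, and 21 at all 3. Downstream of it there were 58, 38 and 31, and 8 at all 3. The median distance of the Pcdha to gap pairs was 157.5, 172.5 and 195 kb. These are numbers of listed pairs with no replicate error, so the shift was not tested. Over all nuclear pairs the number at T48 over that at T0 also differed by distance. It was 0.823 from 20 kb to 100 kb, 0.890 from 100 kb to 250 kb and 0.961 from 250 kb to 500 kb. Under 20 kb it was 1.01. The shift is therefore not shown to be particular to Pcdha.

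**Figure D2:**
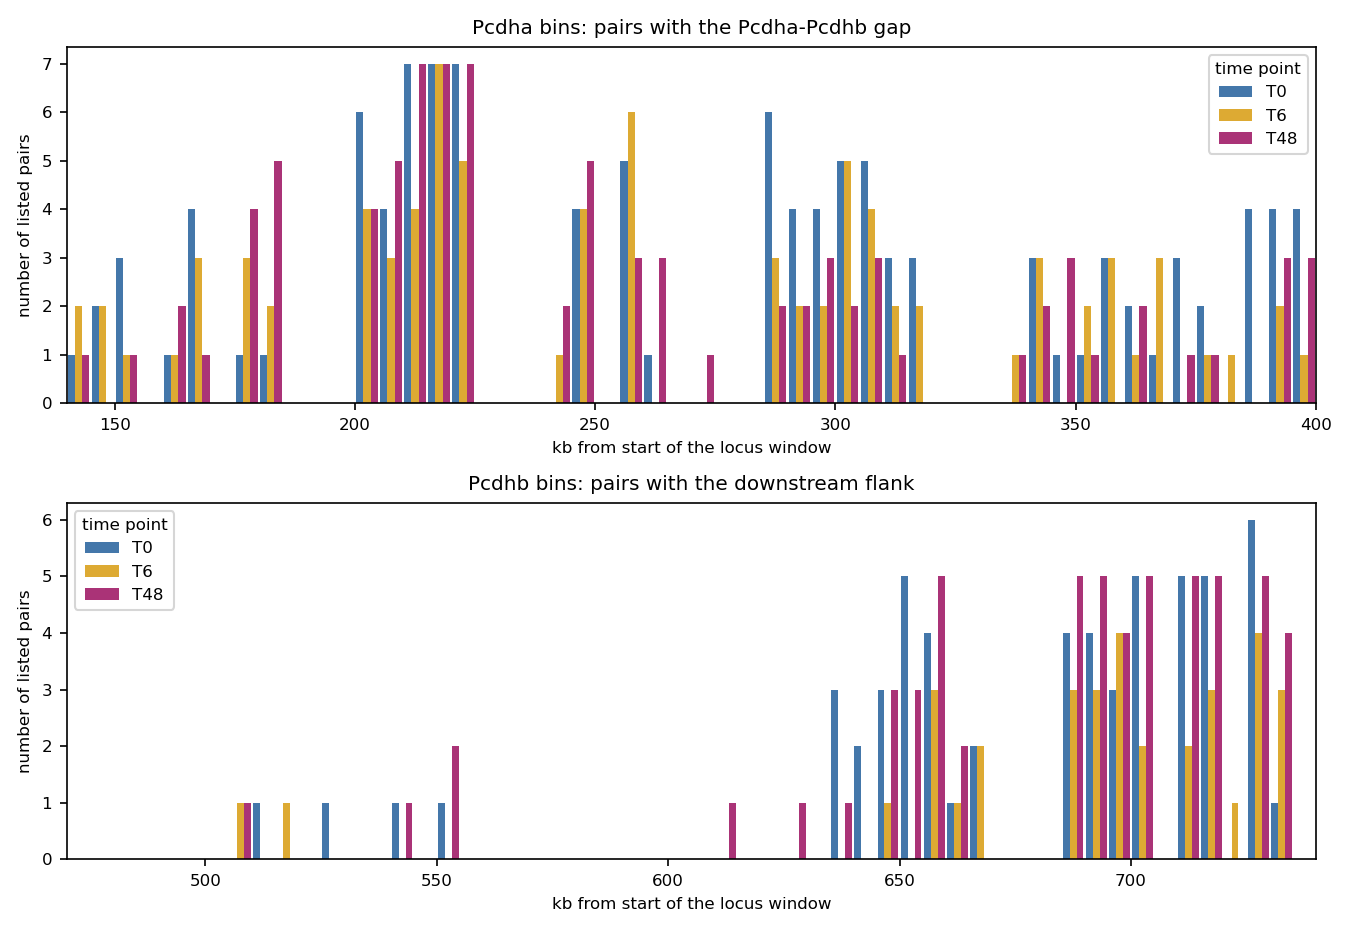
Number of listed pairs of each 5 kb bin with the Pcdha-Pcdhb gap (Pcdha bins, upper panel) and with the downstream flank (Pcdhb bins, lower panel), against kb from the start of the locus window, at T0, T6 and T48. The Pcdha partners form separate groups of bins along the sub-cluster, and 53, 32 and 54 of the 57, 34 and 58 Pcdhb pairs come from the downstream side of Pcdhb.

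Of all contacts of the locus, those between Pcdhb and the downstream flank, the 40 kb after Pcdhg, had the highest ratio of listed to expected pairs. With Pcdhb the flank had 57 listed pairs at T0, 34 at T6 and 58 at T48, at a median distance of 395, 380 and 385 kb. These were 15.3, 11.6 and 15.1 times the number expected, and 4 of 2243, 11 of 2230 and 4 of 2245 windows were higher in the same layout. With Pcdhg, which adjoins it, there were 80, 75 and 57 pairs, or 5.05, 5.76 and 4.20 times the number expected. With the Pcdhb-Pcdhg gap there were 8, 6 and 16 pairs, or 3.19, 2.59 and 6.83 times the number expected. With Pcdha 0 pairs were listed at any time, where 1.09, 0.856 and 1.36 were expected.

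**Figure D3:**
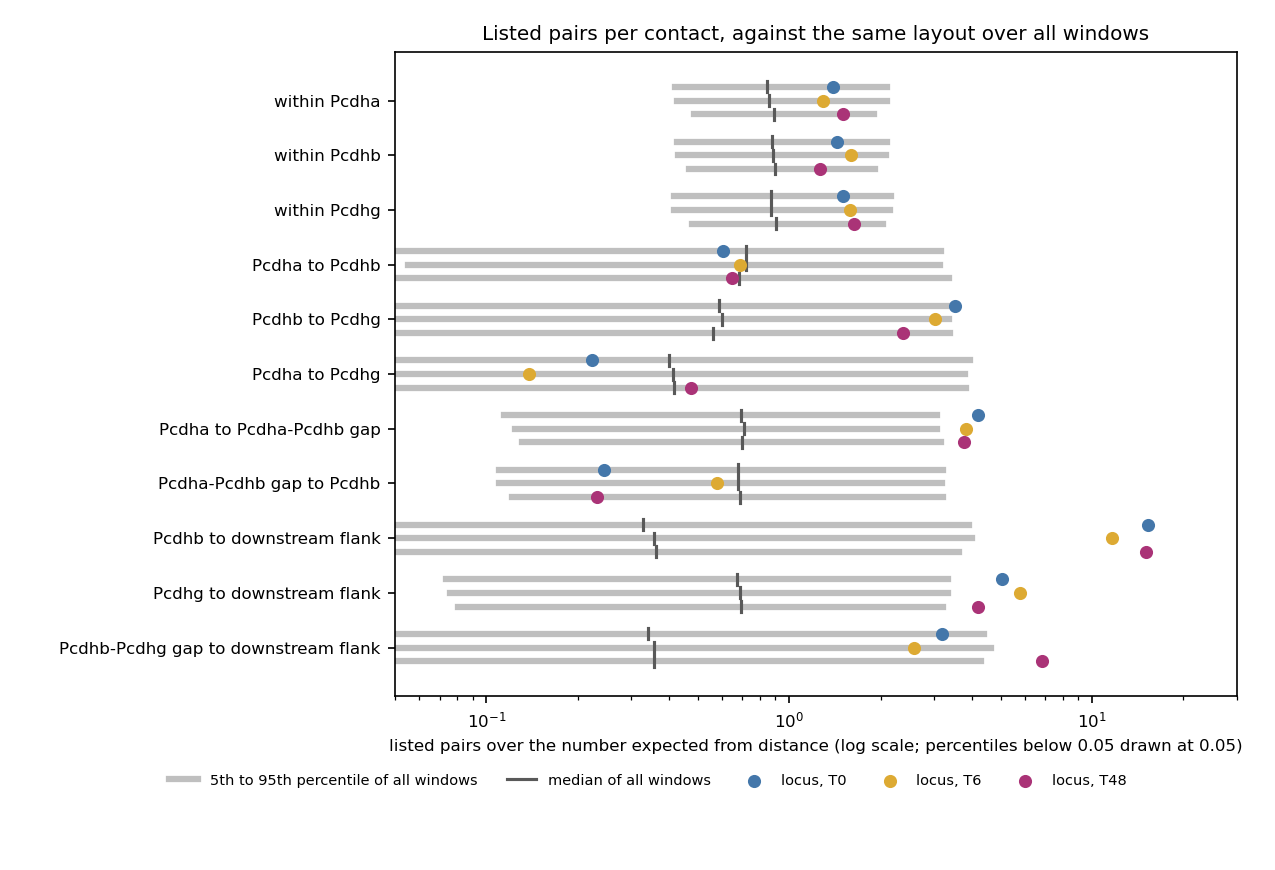
Listed pairs over the number expected from distance (log scale) for each contact at T0, T6 and T48 (points), with the 5th to 95th percentile (grey bars) and the median (ticks) of the same layout over the windows of the genome. The points for Pcdhb to the downstream flank, at 15.3, 11.6 and 15.1, lie farthest above their bars, and those for Pcdha to Pcdhb lie near the medians.

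The contacts of Pcdhb with the flank were often listed again at T48. Of the 57 at T0, 70.2% were listed at T48 (95% Wilson interval 57.3% to 80.5%) and 38.6% at T6 (27.1% to 51.6%), and 18 were listed at T0 and T48 but not at T6. The pair of 37677500 and 38042500, 365 kb apart, had counts of 13 and 13 in T0, 17 and 8 in T6, and 17 and 11 in T48. The pair of 37647500 and 38042500, 395 kb apart, had 13 and 5, 10 and 10, and 12 and 15. Both were above the lowest count listed at that distance in every library. In both, the unnormalised counts of the groups overlap, though the libraries differ in depth.

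Within the flank, bins differed in their partners. Bin chr18:38040001-38045000 was listed with Pcdhb 12, 8 and 15 times and with Pcdhg 9, 11 and 3 times at T0, T6 and T48. Bin chr18:38010001-38015000, next to Pcdhg, was listed with Pcdhb 11, 6 and 12 times and with Pcdhg 19, 18 and 19 times. Bin chr18:38025001-38030000 was listed with Pcdhg 9, 10 and 2 times and with Pcdhb 5, 1 and 1 times. The last bin thus had 3 listed pairs of any kind at T48, after 18 at T0 and 14 at T6, the largest drop in number of any bin of the locus between T0 and T48.

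The median bin of the locus had 11 listed pairs at T0, 10 at T6 and 10 at T48, against 9, 8 and 9 over all bins, whose 95th percentiles were 22, 19 and 20. The 6 listed flank bins had medians of 27.5, 24 and 26.5. The bin at 38012500 had 33, 27 and 36 listed pairs and the bin at 38037500 had 33, 27 and 27. In Pcdhb the bin at 37677500 had 29, 25 and 22 and the bin at 37637500 had 29, 21 and 22. The largest gain in number was at 37907500 in Pcdhg, with 4, 14 and 21 listed pairs. Those were 2, 5 and 8 within Pcdhg, 1, 3 and 4 with Pcdhb, and 1, 4 and 5 with the downstream flank. Between T6 and T48 the largest gain was at 37197500 in Pcdha, with 6, 5 and 18 pairs, of which 2, 1 and 10 were within Pcdha.

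Few member pairs left the locus. There were 48 at T0, 33 at T6 and 53 at T48, and 38, 19 and 46 of them went to the right, past the downstream flank, at a median of 17.5, 12.5 and 12.5 kb beyond the limit. Of these, 22, 8 and 27 started in Pcdhb. At any time 46 Pcdhb pairs ran past that limit, with a median distance of 445 kb and a longest of 4490 kb, and 2 were listed throughout. The number expected from distance was not computed for them.

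Strength was tested on the 284 member pairs listed at all 3 time points, since the other pairs have no count at some time. In edgeR's quasi-likelihood test over all such pairs of the genome, 0 of 245 tested members were called at an adjusted p of 0.05 in each of T6 over T0, T48 over T0 and T48 over T6, where the background was 0% called in each. At an unadjusted p under 0.05 there were 7, 6 and 18 members (2.86%, 2.45% and 7.35%), against 3.18%, 5.52% and 5.06% of all pairs. DESeq2 called 0 of the 284, 50 and 33 members that had an adjusted p, against 0.000184%, 0.0638% and 0.0925% of all pairs it tested. The members' median log2 ratio was 0.01 in each comparison, with 124, 125 and 127 of 245 above 0, and the median over all pairs was 0.00.

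The member pair with the lowest p joined 37607500 in Pcdhb to 38032500 in the downstream flank, 425 kb away. Its counts were 5 and 3 in T0, 4 and 3 in T6, and 12 and 10 in T48. Both T48 libraries were above all others. The T48 over T0 log2 ratio was 1.54 (SE 0.37), but the edgeR adjusted p was 0.781. Next came 37247500 in Pcdha with the gap bin 37377500, with 28 and 19, 24 and 16, and 14 and 6, and a log2 ratio of T48 over T0 of -1.12 (SE 0.29, edgeR adjusted p 0.781). Within Pcdhg the pair of 37927500 and 38007500 had 24 and 18, 25 and 14, and 8 and 10, and a log2 ratio of -1.10 (SE 0.33, edgeR adjusted p 0.843). Of the 5 lowest for T6 over T0, all were higher at T6, with log2 ratios from 0.47 to 0.86 and an edgeR adjusted p of 1.00.

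Counts were then summed over the pairs listed at all 3 time points, per contact, and tested with edgeR beside the sums of all pairs of 250 kb tiles of the genome. Of the 15 contacts tested, 0 were called in each comparison, where 0% of all sums were called in each. At an unadjusted p under 0.05 there were 0, 1 and 1 for T6 over T0, T48 over T0 and T48 over T6 (background 1.98%, 10.3% and 8.08%), and DESeq2 called 0 of the 15, 2 and 5 with an adjusted p, against 0.0373%, 3.79% and 1.32% of all sums. Values in CPM, the usual depth-scaled count, below are relative to the total over all such pairs of the genome.

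None of the contacts within a sub-cluster passed the test. Within Pcdha, over 48 pairs, the summed level was 105 and 103 CPM in T0, 97.9 and 103 in T6, and 103 and 104 in T48. Both T6 libraries were below all others, though T6 replicate 2, at 102.846 CPM, lay just under T48 replicate 1, at 102.862 CPM. The T48 over T0 log2 ratio was -0.02 (95% interval -0.11 to 0.08, edgeR adjusted p 0.949). Within Pcdhb, over 33 pairs, the levels were 56.6 and 60.4, 58.0 and 56.9, and 58.0 and 66.5 CPM, with a log2 ratio of 0.09 (-0.11 to 0.29). Within Pcdhg, over 55 pairs, they were 98.6 and 100.9, 98.1 and 102, and 97.9 and 98.4 CPM, with a log2 ratio of -0.02 (-0.11 to 0.06). The T6 over T0 intervals were -0.15 to 0.04, -0.23 to 0.18 and -0.09 to 0.09 in the same order. With pairs of at least 20 kb alone, which are fewer, several ratios lay outside these intervals. They were then -0.18 (T6 over T0) and -0.14 (T48 over T0) within Pcdha, 0.34 and 0.32 within Pcdhb, and -0.17 (T48 over T0) within Pcdhg, and none passed the test.

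Between sub-clusters only Pcdhb to Pcdhg had pairs listed throughout, 8 in number. Their summed level was 2.22 and 2.79 CPM in T0, 3.18 and 3.18 in T6, and 2.03 and 2.71 in T48. Both T6 libraries were above all others, and the T0 and T48 groups overlap. The log2 ratio was 0.36 for T6 over T0 (SE 0.20, edgeR adjusted p 1.00) and -0.44 for T48 over T6 (SE 0.20, edgeR adjusted p 0.640). Without T0 replicate 1 the first was 0.19, and without T48 replicate 1 the second was -0.23. With the limits moved outwards by 20 kb they were 0.12 and -0.17. The test leaves out the 88 of 96 T0 pairs that were not listed at all times, so it does not bear on the numbers of listed pairs.

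Pcdha to the Pcdha-Pcdhb gap, over 29 pairs, had 19.9 and 18.6 CPM in T0, 18.3 and 19.4 in T6, and 20.2 and 18.6 in T48. The groups overlap, and T48 over T0 had a log2 ratio of 0.01 (95% interval -0.25 to 0.27, edgeR adjusted p 0.997). Pcdhb to the downstream flank, over 22 pairs, had 7.46 and 7.21, 6.58 and 8.55, and 7.50 and 8.89 CPM, with a log2 ratio of 0.16 (-0.25 to 0.56, edgeR adjusted p 0.826). These intervals leave room for a change of the summed count by up to 0.27 and 0.56 on the log2 scale.

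Pcdhg to the downstream flank, over 28 pairs, had 18.4 and 18.96 CPM in T0, 20.02 and 22.9 in T6, and 16.1 and 18.4 in T48. Both T6 libraries were above all others. The log2 ratio of T48 over T6 was -0.31 (SE 0.12, unadjusted p 0.0455, edgeR adjusted p 0.611). The Pcdhb-Pcdhg gap to the downstream flank, over 2 pairs, had 0.382 and 0.485, 0.421 and 0.706, and 0.820 and 0.824 CPM, and both T48 libraries were the highest. Its T48 over T0 log2 ratio was 0.95 (SE 0.34, unadjusted p 0.0346, edgeR adjusted p 0.441). With the limits moved inwards by 20 kb it was 0.057 (unadjusted p 0.686). Neither passed the test across all sums.

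**Figure D4:**
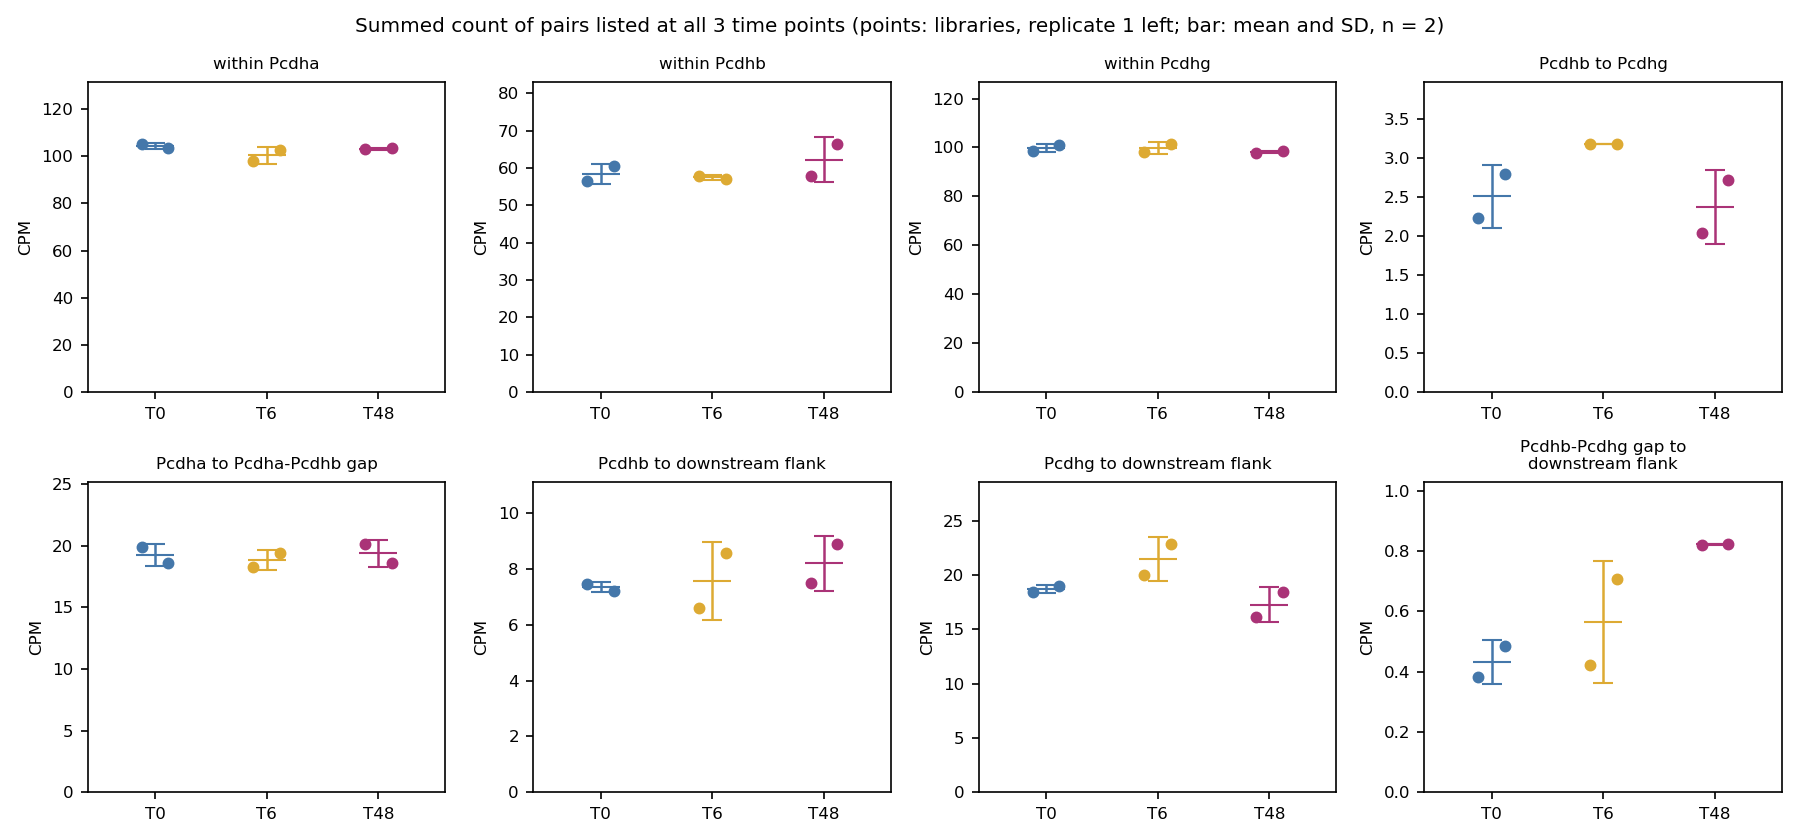
Summed count in CPM of the pairs listed at all 3 time points, for 8 contacts at T0, T6 and T48; points are the 2 libraries of a time point (replicate 1 on the left), bars the mean and SD, and each axis starts at 0. Within Pcdha the T0 and T48 libraries overlap and the T6 points lie lowest, 1 of them by a narrow margin. The T6 points lie highest for Pcdhb to Pcdhg and for Pcdhg to the downstream flank.

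In windows of 50 kb, 22 of which tile the locus, 0 were called in each comparison, where edgeR called 0% of all windows for T6 over T0, 0.0263% for T48 over T0 and 0.0182% for T48 over T6. At an unadjusted p under 0.05 there were 0 in each comparison (background 1.73%, 8.59% and 6.72%), and DESeq2 called 0 of the 22, 5 and 22 with an adjusted p, against 0.0283%, 1.1% and 0.168% of all windows. The window log2 ratios of T48 over T0 ran from -0.16 to 0.91. The largest was in Pcdhb, at chr18:37500001-37550000, over 2 pairs, with 0.971 and 1.22 CPM in T0, 1.59 and 1.95 in T6, and 1.07 and 3.10 in T48 (edgeR adjusted p 0.684). Its T48 libraries lie on both sides of those of T6, and 1 of them is below T0 replicate 2. The windows with most counts, chr18:38000001-38050000 over the end of Pcdhg and the flank and chr18:37300001-37350000 at the end of Pcdha, had log2 ratios of -0.09 and 0.04.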

How the data were processed

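The deposited table pairs 5 kb bins and holds 1 column of unnormalised counts for each library, per its headers. The submitters' processing notes name CASAVA 1.8.2, Bowtie2 and mm9. The restriction enzyme, how significant pairs were called and whether bins were corrected for coverage are not given in the sources used here. Groups came from the sample titles. All 6 libraries entered 1 fit per table (edgeR 4.0.16 in R 4.3.3: TMM, filterByExpr, quasi-likelihood F test, two-sided, Benjamini-Hochberg over all features at 0.05) on the pairs that every time point lists: single pairs, 50 kb windows (each pair once per window it touches), and sums per pair of 250 kb tiles with the contacts of the locus added. Alternatives were DESeq2 1.42.0, its size factors, no filter, a replicate block, each library left out, other distances and limits, and all listed pairs. Scripts were tested on simulated data. The members, lists and limits were chosen with earlier results of these data known.

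Named features were all combinations of sub-clusters, gaps and flanks, the 5 member pairs with the lowest edgeR p per comparison, the bins with most listed pairs or the largest differences, and pairs by their count over the lowest count listed at their distance. The Wilson intervals cover counting error alone, and those of log2 ratios rest on edgeR's estimate of the spread between these libraries. A Hi-C read pair carries no molecular identifier, and pairs that share a bin are not independent. With 2 libraries against 2, an exact permutation test of a single value cannot go below p = 0.333, so none was run. No sequence is printed.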

Additional observations from a re-analysis of the deposited data

Results flagged for a closer look

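The summed count of Pcdhg to the downstream flank stood on opposite sides of T0 at the later times. Both T6 libraries were above both T0 libraries, and at T48 both were below them, though the higher T48 library, at 18.422 CPM, lay just under the lower T0 library, at 18.431 CPM (T48 over T6 log2 ratio -0.31, unadjusted p 0.0455, edgeR adjusted p 0.611, over 28 pairs). The same held for 2 of the 22 windows of 50 kb in CPM, and for no other of the 15 contacts. How many sums and windows of the whole genome show this order was not computed. It is therefore not shown to be particular to the locus. The window chr18:37300001-37350000, at the end of Pcdha, was lower than T0 in both T6 libraries and higher in both T48 libraries (T48 over T6 log2 ratio 0.068, edgeR adjusted p 0.843). The window chr18:37900001-37950000, in Pcdhg, was higher in both T6 libraries and lower in both T48 libraries (log2 ratio -0.13, edgeR adjusted p 0.749). None of these differences between time points passed the test across all features.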

How the results depend on the processing

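Calls of 0 were kept in 108 of 114 alternatives. Of these, 54 left out 1 library, where 0 features of the whole genome were called, so they say nothing about stability. The same holds for further alternatives among the 108 in which 0 features of the genome were called. These include pairs of at least 20 kb, moved limits, and no filter or DESeq2 size factors on single pairs and on sums. The 6 alternatives that did not keep 0 came from counting all listed pairs, with 0 where a pair is not listed. It called 2, 9 and 9 of the locus windows (T6 over T0, T48 over T0, T48 over T6), where 21.3%, 43.1% and 43.7% of all windows were called, and 2, 7 and 9 of the contacts, where 20.3%, 41.6% and 41% of all sums were called. A pair not listed is 0 in both replicates by construction, so replicates then agree by construction and this setting counts listing, not strength. It gave log2 ratios past the threshold of -0.51 for Pcdhb to Pcdhg in T48 over T0 and -0.51 in T48 over T6, 0.69 for Pcdhb to the downstream flank in T48 over T6, and, for T48 over T0 and T48 over T6 in this order, -0.56 and -0.71 for Pcdhg to the downstream flank and 1.16 and 1.34 for the Pcdhb-Pcdhg gap to that flank. It turned the sign within Pcdhb (-0.27 for T48 over T0, -0.25 for T48 over T6), within Pcdhg (-0.026 for T6 over T0, 0.022 for T48 over T6), for Pcdhb to Pcdhg (-0.0037 for T6 over T0), Pcdha to its gap (-0.39 for T48 over T0, -0.087 for T48 over T6), and, for T6 over T0, Pcdhb to the flank (-0.45) and the Pcdhb-Pcdhg gap to the flank (-0.18). Of these, both values within Pcdhb, that of Pcdha to its gap for T48 over T0 and that of Pcdhb to the flank also passed the threshold.

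Of 504 alternatives for log2 ratios, 459 kept direction and side of the threshold (those of the 4 contacts with a gap or the flank were chosen after seeing the data); 38 changed sign, 17 of them on leaving out a library. Other sign changes, all of ratios not past the threshold, were: offset by distance, within Pcdha 0.0082 and within Pcdhg 0.0101 (T48 over T0), within Pcdhg 0.0012 (T48 over T6) and Pcdhb to the flank -0.039 (T6 over T0); pairs of at least 20 kb, within Pcdhb 0.34 (T6 over T0) and -0.024 (T48 over T6), within Pcdhg -0.087 (T6 over T0); no filter, replicate block and DESeq2, within Pcdhg -0.0011, -0.00028 and -0.0017 (T6 over T0); limits moved inwards by 20 kb, within Pcdhg 0.0028 (T48 over T0) and the Pcdhb-Pcdhg gap to the flank -0.16 (T48 over T6). The cause was not tested. On leaving out each library in turn, the log2 ratios that changed sign ranged, in T6 over T0, from -0.072 to 0.021 within Pcdhb, -0.023 to 0.027 within Pcdhg, -0.079 to 0.019 for Pcdha to its gap, -0.16 to 0.22 for Pcdhb to the flank and -0.0098 to 0.73 for the Pcdhb-Pcdhg gap to the flank; in T48 over T0, from -0.013 to 0.19 within Pcdhb, -0.050 to 0.065 for Pcdha to its gap and -0.29 to 0.13 for Pcdhb to Pcdhg; and in T48 over T6, from -0.020 to 0.096 for Pcdha to its gap and -0.067 to 0.31 for Pcdhb to the flank.

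Same-numbered libraries deviated together (correlation of deviations 0.32 to 0.38 over pairs, 0.65 to 0.75 over windows), but nothing in the labels ties the numbers and there are 2 of them. With the replicate block 0 member pairs, windows and contacts were called, as without it, where 0%, 0.000202% and 0.000202% of all pairs, 0.0243%, 0.628% and 0.391% of all windows, and 0.00498%, 1.67% and 0.608% of all sums were called; the lowest adjusted p of a contact was 0.127.

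A stricter list (both counts at least 1.5 times the lowest listed) held 263, 205 and 229 member pairs at T0, T6 and T48 and 19, 21 and 9 between sub-clusters, so the order of T0 and T6 there turned. Limits moved inwards by 20 kb left 70, 53 and 45 between sub-clusters, and outwards 177, 132 and 136, so the order of T6 and T48 turned. Pcdha to Pcdhb and Pcdha to Pcdhg had 0 pairs listed at all 3 time points, so no log2 ratio and none of its alternatives could be computed. A single distant pair rests on counts near the lowest listed, 4 and 3 at 400 kb, which limits what can be seen of single contacts.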
